A study of Mus musculus with 6 samples.

Results

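Chemokines and their receptors were examined in remnant mouse liver after partial hepatectomy, the surgical removal of most of the liver that is the standard model of liver regeneration. Members were the 52 genes, of 17097 measured, whose symbol is that of a CC, CXC, XC or CX3C chemokine or receptor, including Pf4, Ppbp and the atypical receptors Ackr2 and Ackr3; 36 encode ligands and 16 encode receptors. Membership follows the gene symbol, and the rule uses no measured difference, on probe sets annotated to 1 gene, and each gene was read on its brightest probe set, by the mean of 6 arrays. The mutant mice carried a hepatocyte-specific deletion of Klf6, a zinc-finger transcription factor, and are labelled DeltaKlf6 (3 arrays); they were compared with wildtype mice (3 arrays). Both groups were C57Bl/6, both had 70% of the liver removed, and both were sampled 12 h later, with 1 array per animal. The driver of the deletion, and the sex and age of the animals, are not stated in the labels. The RNA came from whole liver tissue, so cells other than hepatocytes, which keep Klf6 in this design and make many of the chemokines, contributed to every value. In such bulk tissue fewer cells of a type and less RNA per cell cannot be told apart.

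Chemokines are small secreted proteins that guide leukocytes along concentration gradients, and they are sorted into families by the spacing of their N-terminal cysteines. They act through receptors coupled to inhibitory G proteins on the moving cell, while atypical receptors bind and remove ligand without that signal. In injured or resected liver, hepatocytes, Kupffer cells (the resident macrophages), stellate cells and sinusoidal endothelium release chemokines, and neutrophils, monocytes and lymphocytes respond to them.

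No chemokine or receptor differed between the groups at the threshold of an adjusted p under 0.05. By limma with Benjamini-Hochberg adjustment over all 17097 genes, 0 of the 52 members were called, as were 0 of all genes, a background of 0% (adjusted p of members 0.992 to 0.998). At an unadjusted p under 0.05 there were 2 members, which is 3.85% of members beside 3.69% of all genes. Cxcl14 was on the higher side (1 member, beside 1.21% of genes) and Ccr2 on the lower side (1 member, beside 2.48% of genes). The 3 DeltaKlf6 values and the 3 wildtype values did not overlap for 4 members, Cxcl14 and Ackr3 above and Ccr2 and Ccl8 below, which is 7.69% beside 9.32% of all genes (3.41% above and 5.91% below). These shares are close to those of all genes. By group mean 28 members were higher in DeltaKlf6 and 24 lower, 53.8% higher beside 48.4% of all genes, and the median log2 difference, DeltaKlf6 minus wildtype, was 0.04 over members and -0.01 over all genes. A difference of at least 1.5-fold was seen for 7 members, 13.5% beside 8.39% of all genes: Cxcl14, Ccl5, Cxcl1, Ackr3 and Cxcl10 on the higher side (5 members, beside 3.28% of genes) and Ccr2 and Cxcl13 on the lower side (2 members, beside 5.11% of genes). None of the 7 passed the test.

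**Figure D1:**
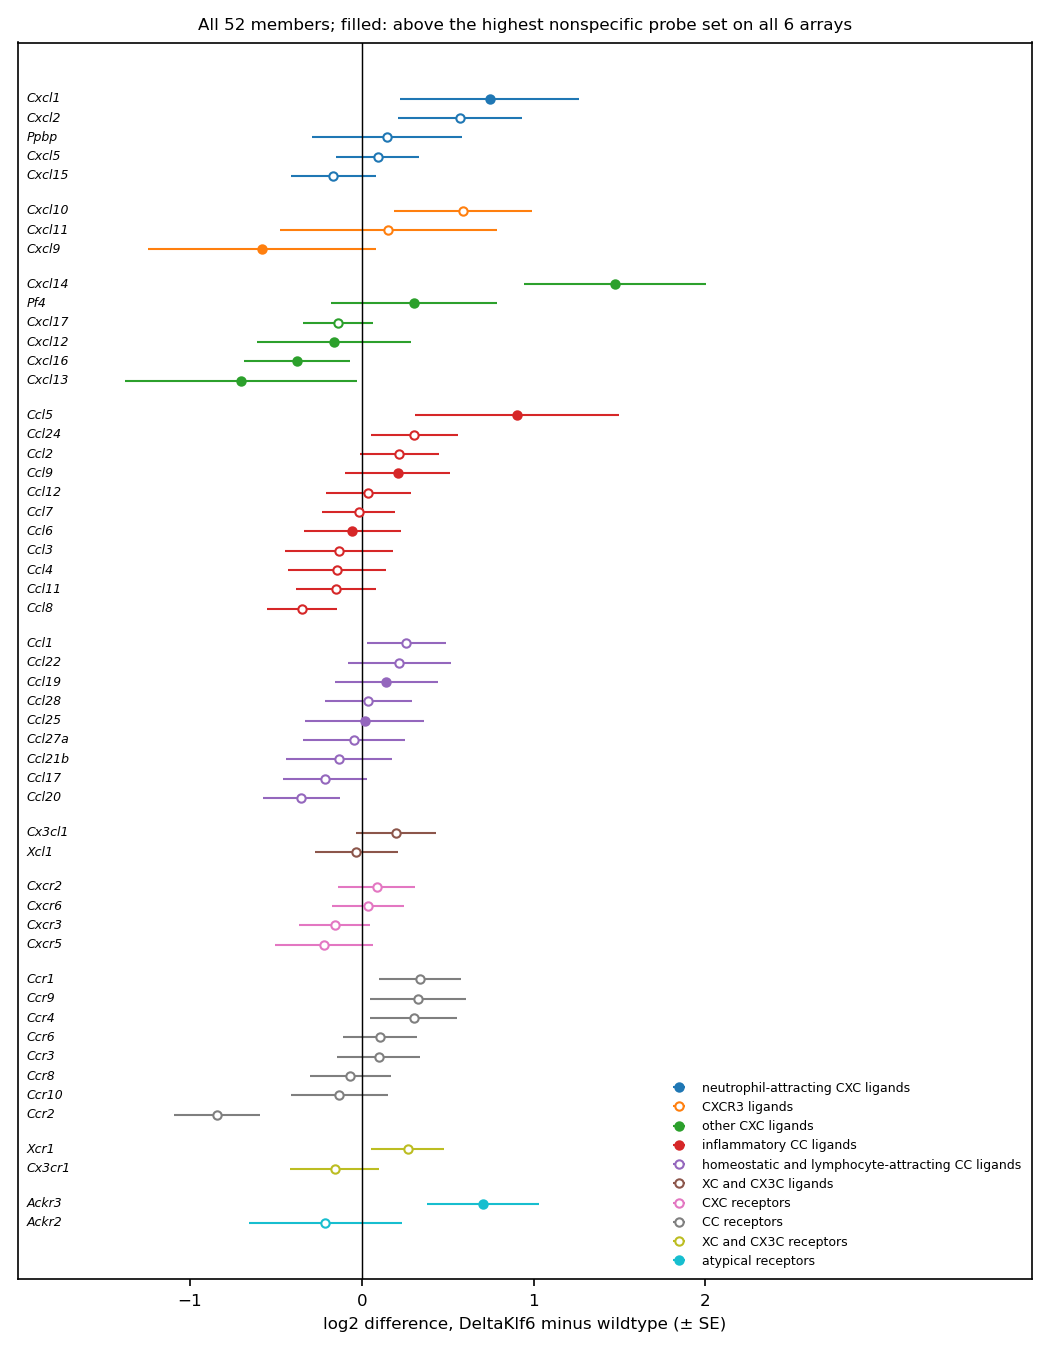
The log2 difference (DeltaKlf6 minus wildtype, horizontal axis) of each of the 52 members is drawn with its standard error, grouped and coloured by role, with 3 arrays per group. Filled points are the 13 members above the highest nonspecific control on all 6 arrays; Cxcl14 (1.47) and Ccl5 (0.90) lie farthest above 0 and Ccr2 (-0.84) farthest below.

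The library labelled DeltaKlf6 1 went against its label in Klf6 itself. The brightest Klf6 probe set was at 7.03, 4.61 and 3.15 in libraries DeltaKlf6 1, 2 and 3, compared with 5.09, 4.43 and 5.20 in wildtype 1, 2 and 3, and the other 2 probe sets were also highest in DeltaKlf6 1 (5.88 and 5.81). DeltaKlf6 2 lay within the wildtype range on the brightest probe set. On the second, DeltaKlf6 2 and 3 (4.12 and 3.74) both lay within the wildtype range of 3.73 to 4.44. On the third, both (2.82 and 2.83) lay below the wildtype range of 3.41 to 4.03. The group differences of the 3 probe sets were 0.02, 0.52 and 0.13 (limma adjusted p = 0.999, 0.992 and 0.996), and where they lie relative to the deleted part of the gene is not known here. Directions below are therefore between libraries as labelled. Array medians were 3.30 to 3.45 in DeltaKlf6 and 3.33 to 3.39 in wildtype. The library labelled DeltaKlf6 3 had a lower upper quartile (5.08, with 5.53 and 5.63 in DeltaKlf6 1 and 2 and wildtype arrays at 5.50 to 5.51) and a larger 3'-minus-5' Gapdh signal (4.83, with 3.47 and 3.45 in DeltaKlf6 1 and 2 and wildtype arrays at 4.06 to 4.43). Hepatocyte markers other than Apob were bright on every array, and the mean of the whole list was 11.03 to 11.70 in DeltaKlf6 and 11.29 to 11.34 in wildtype. Apob was at 3.29 to 5.26 in DeltaKlf6 and 3.95 to 4.48 in wildtype.

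Many members were dim. The arrays carry 23 nonspecific control probe sets, and the brightest of them on each array, at 4.17 to 4.44 in DeltaKlf6 and 3.69 to 3.89 in wildtype, was used as a rough mark of background. By this mark 13 members were above it on all 6 arrays, 14 on some arrays and 25 on none. The 13 were Cxcl1, Cxcl9, Cxcl12, Cxcl13, Cxcl14, Cxcl16, Pf4, Ccl5, Ccl6, Ccl9, Ccl19, Ccl25 and Ackr3. Only 1 of 16 receptors was among them, and 11 of 16 receptors were never above the mark. Since a probe set's brightness also depends on its probes, no level is compared between genes here, and differences among the 25 dim members are among values near background.

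Promoter sequences are shown for 5 members on which the results turn. Cxcl14, Ackr3 and Ccr2 are members whose groups did not overlap, and Cxcl1 and Cxcl10 are inducible ligands that carry well-known inflammatory elements. Each runs from 250 bases before to 50 bases after the RefSeq transcription start (build GRCm38.p6), 5′ to 3′ on the strand of the gene. The windows are chr13:56296502-56296801, minus strand, for Cxcl14; chr1:90203730-90204029, plus strand, for Ackr3; chr9:124101933-124102232, plus strand, for Ccr2; chr5:90890995-90891294, plus strand, for Cxcl1; and chr5:92348840-92349139, minus strand, for Cxcl10. Capitals mark GC boxes, which read GGGCGG. They also mark CACCC boxes, which read CCACCC, NF-kB-type letters (GGG, then any 2 bases, then TTTCC), interferon-stimulated elements (a pair of TTTC runs with any 2 bases between them) and TATA boxes (TATAAA), each searched on both strands, and overlapping matches run together.
Cxcl14: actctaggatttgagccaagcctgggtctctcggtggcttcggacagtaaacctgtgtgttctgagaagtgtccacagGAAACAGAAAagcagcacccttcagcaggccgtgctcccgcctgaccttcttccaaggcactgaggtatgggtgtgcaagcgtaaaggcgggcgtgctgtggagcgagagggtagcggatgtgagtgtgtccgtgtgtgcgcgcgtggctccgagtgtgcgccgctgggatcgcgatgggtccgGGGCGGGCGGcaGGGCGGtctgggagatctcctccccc
Ackr3: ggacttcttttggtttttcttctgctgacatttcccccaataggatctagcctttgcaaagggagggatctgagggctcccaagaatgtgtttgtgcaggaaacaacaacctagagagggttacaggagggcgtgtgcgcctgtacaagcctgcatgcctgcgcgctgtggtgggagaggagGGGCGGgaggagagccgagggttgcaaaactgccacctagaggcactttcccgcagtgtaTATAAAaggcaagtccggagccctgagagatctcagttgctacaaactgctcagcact
Ccr2: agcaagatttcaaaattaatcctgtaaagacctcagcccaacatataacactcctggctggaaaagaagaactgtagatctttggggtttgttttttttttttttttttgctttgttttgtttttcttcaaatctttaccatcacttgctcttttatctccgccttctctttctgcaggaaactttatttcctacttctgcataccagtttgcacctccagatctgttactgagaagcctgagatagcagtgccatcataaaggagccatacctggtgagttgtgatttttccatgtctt
Cxcl1: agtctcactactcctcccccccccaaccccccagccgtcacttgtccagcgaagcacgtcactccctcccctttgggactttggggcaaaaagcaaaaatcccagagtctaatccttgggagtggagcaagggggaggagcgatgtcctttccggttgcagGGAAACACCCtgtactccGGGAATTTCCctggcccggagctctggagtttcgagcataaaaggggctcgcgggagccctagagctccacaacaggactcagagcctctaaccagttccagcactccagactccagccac
Cxcl10: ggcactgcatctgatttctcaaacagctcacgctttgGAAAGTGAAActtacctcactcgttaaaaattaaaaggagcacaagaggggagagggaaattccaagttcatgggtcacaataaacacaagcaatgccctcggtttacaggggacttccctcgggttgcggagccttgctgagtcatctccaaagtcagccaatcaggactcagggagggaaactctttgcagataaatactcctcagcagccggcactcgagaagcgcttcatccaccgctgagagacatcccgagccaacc

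The Cxcl14 window held 3 GC boxes, 2 of them overlapping, a type of element that Klf factors are known to bind, all within 30 bases after the start, and 1 interferon-type element. The Ackr3 window held 1 GC box and 1 TATA box, and the Ccr2 window held none of the 5 letter strings. The Cxcl1 window held 2 NF-kB-type matches, at -89 to -80 and at -71 to -62 relative to the start, and the Cxcl10 window held 1 interferon-type element. RefSeq windows were found for 40 of the 52 members (44 windows, since some genes have several starts). Among these windows the GC box was in 20.5%, beside 35.7% of all 32851 windows, and the CACCC box in 31.8%, beside 31.5%. The NF-kB letters were in 11.4% (Ccl20, Ccl9, Ccr3, Cxcl1 and Cxcl2), beside 1.63% of all windows, and the interferon-type letters in 6.82% (Ccl19, Cxcl10 and Cxcl14), beside 3.44%. The TATA box was in 25%, beside 13.6%. A match is a description of letters and does not show binding. A window without a match may still hold other forms of the same element.

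Cxcl14, an epithelial CXC chemokine made constitutively in many tissues, had the largest mean difference of the 52 members. Its log2 expression was 9.58, 8.32 and 7.33 in libraries DeltaKlf6 1, 2 and 3, compared with 7.26, 6.44 and 7.12 in wildtype 1, 2 and 3, and every level given below is on this scale. All 3 DeltaKlf6 values lay above all wildtype values, by 0.07 between the closest pair, and the excess over the wildtype mean was 2.64, 1.39 and 0.39 in DeltaKlf6 1, 2 and 3. The group means were 8.41 ± 1.13 in DeltaKlf6 and 6.94 ± 0.44 in wildtype (mean ± SD, n = 3 each), which is a 2.78-fold difference on the linear scale (log2 difference 1.47, SE 0.53, limma unadjusted p = 0.0243, adjusted p = 0.992). The dimmer Cxcl14 probe set gave 4.25, 3.52 and 2.94 in DeltaKlf6 1, 2 and 3, against 3.39, 2.92 and 3.07 in wildtype 1, 2 and 3, where the groups overlapped. The difference came to 0.89 when DeltaKlf6 1, the library with the most Klf6 signal, was left out, and to 2.02 when DeltaKlf6 3 was left out. Averaging both probe sets gave 0.96, with groups that overlapped, and under that setting no member had an unadjusted p under 0.05.

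Cell type markers were set beside Cxcl14. Stellate cell and fibroblast markers, 6 of 10 of them higher by group mean, had list means of 6.41, 6.57 and 5.66 in DeltaKlf6 1, 2 and 3, with wildtype arrays at 6.01 to 6.32. The log2 of their summed signal was 9.62 to 10.86 in DeltaKlf6 and 10.20 to 10.57 in wildtype, and 1 of the 10 was never above the background mark. Cholangiocyte markers, 3 of 4 of them higher, had list means of 3.61, 3.20 and 3.28 in DeltaKlf6 1, 2 and 3, with wildtype arrays at 2.91 to 3.66. These values are near background: Sox9 was never above the mark, and Epcam, Krt7 and Krt19 were above it on 2, 1 and 1 arrays. Hepatocyte markers, 6 of 10 of them higher, were at 11.52, 11.70 and 11.03 in DeltaKlf6 1, 2 and 3, with wildtype arrays at 11.29 to 11.34. The part of cell composition in the Cxcl14 values was not tested.

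Among the ligands of Cxcr2, the receptor that draws neutrophils, Cxcl1 was bright and Cxcl2 was near background. Cxcl1 was at 9.66, 8.31 and 8.70 in libraries DeltaKlf6 1, 2 and 3, compared with 7.26, 9.16 and 8.01 in wildtype 1, 2 and 3. The groups overlapped, because wildtype 2 lay above DeltaKlf6 2 and 3 (log2 difference 0.74, SE 0.52, limma adjusted p = 0.992). The difference was 1.25 without wildtype 2, 0.30 without wildtype 1 and 0.36 without the library labelled DeltaKlf6 1. Cxcl2 was at 4.16, 2.73 and 3.78 in libraries DeltaKlf6 1, 2 and 3, compared with 2.87, 3.06 and 3.03 in wildtype 1, 2 and 3. It lay above the wildtype arrays in DeltaKlf6 1 and 3 and below them in DeltaKlf6 2 (log2 difference 0.57, SE 0.36, with 0.27 without DeltaKlf6 1 and 0.99 without DeltaKlf6 2). A value alone in parentheses after a gene name, here and below, is its log2 difference. Cxcl5 (0.09), the platelet chemokine Ppbp (0.15) and Cxcl15 (-0.17) stayed below the background mark on every array, as did the receptor Cxcr2 (0.09).

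The mean of these 5 neutrophil-attracting ligands differed from the wildtype mean by 0.76, -0.19 and 0.26 in DeltaKlf6 1, 2 and 3. Neutrophil markers, 3 of 8 of them higher by group mean, differed by -0.06, -0.41 and 0.13. The log2 of their summed signal was 8.06 to 9.15 in DeltaKlf6 and 8.15 to 9.14 in wildtype, and 2 of the 8 were never above the background mark. S100a8, a granulocyte calcium-binding protein, was at 7.42, 6.71 and 8.32 in DeltaKlf6 1, 2 and 3, against 7.26, 8.20 and 8.17 in wildtype 1, 2 and 3. Its partner S100a9 was at 7.29, 6.60 and 7.35 in DeltaKlf6 1, 2 and 3, against 5.85, 7.56 and 7.38 in wildtype 1, 2 and 3. The group differences of the pair had opposite signs (-0.39, SE 0.44, for S100a8 and 0.15, SE 0.46, for S100a9). Camp was the 1 marker of the 8 whose groups did not overlap, beside 5.91% of all genes on the lower side. It was lower (-0.36, SE 0.20) and above the background mark on 3 arrays. The part of neutrophil content in the ligand values was not tested.

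The CXCR3 ligands, induced by interferon and named for a receptor of T cells and NK cells, had their highest values in different libraries. Cxcl9 was at 8.12, 5.72 and 5.46 in libraries DeltaKlf6 1, 2 and 3, compared with 6.44, 7.17 and 7.42 in wildtype 1, 2 and 3, so that DeltaKlf6 1 lay above the wildtype range and the other 2 below it (log2 difference -0.58, SE 0.66, limma adjusted p = 0.992). The Cxcl9 difference was -1.42 without DeltaKlf6 1, -0.22 without DeltaKlf6 2 and -0.09 without DeltaKlf6 3. Cxcl10 was at 3.34, 4.45 and 4.90 in libraries DeltaKlf6 1, 2 and 3, compared with 3.64, 3.96 and 3.32 in wildtype 1, 2 and 3, the opposite order, with DeltaKlf6 2 and 3 above the wildtype range and DeltaKlf6 1 within it (log2 difference 0.59, SE 0.40). The Cxcl10 difference was 1.03 without DeltaKlf6 1 and 0.26 without DeltaKlf6 3. Cxcl11 was at 3.19, 5.84 and 3.43 in libraries DeltaKlf6 1, 2 and 3, compared with 3.92, 4.16 and 3.92 in wildtype 1, 2 and 3, where the library labelled DeltaKlf6 2 alone was high (log2 difference 0.15, SE 0.63, and -0.69 without that library). The dimmer Cxcl11 probe set, never above the background mark, was at 2.44, 2.44 and 2.49 in DeltaKlf6 1, 2 and 3. The brightest probe sets of Cxcl10 and Cxcl11 were above the mark on 3 and 4 of the 6 arrays. On the brightest probe sets, each of the 3 ligands was highest in a different library of the DeltaKlf6 group. Their receptor Cxcr3 was never above the background mark (-0.16). T and NK cell markers, 5 of 11 of them higher, had list means of 3.08, 3.04 and 3.26 in DeltaKlf6 1, 2 and 3, with wildtype arrays at 3.17 to 3.26, and 9 of the 11 were never above the mark. The log2 of their summed signal was 6.56 to 6.87 in DeltaKlf6 and 6.69 to 6.82 in wildtype, and their part in the ligand values was not tested.

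Cxcl12, the stromal ligand that retains progenitors and binds the atypical receptor Ackr3, was at 8.20, 9.91 and 8.85 in libraries DeltaKlf6 1, 2 and 3, compared with 8.90, 9.70 and 8.84 in wildtype 1, 2 and 3. DeltaKlf6 1 was lowest and DeltaKlf6 2 highest of all 6 arrays, and the other bright probe set had the same lowest and highest library of the DeltaKlf6 group (7.73, 8.76 and 7.85 in DeltaKlf6 1, 2 and 3). The group difference was -0.16 (SE 0.45, limma adjusted p = 0.995), and it turned to 0.24 without DeltaKlf6 1. Ackr3, which scavenges Cxcl12, was at 6.64, 5.64 and 5.60 in libraries DeltaKlf6 1, 2 and 3, compared with 5.03, 5.54 and 5.19 in wildtype 1, 2 and 3. The groups did not overlap, by a margin of 0.06 (log2 difference 0.71, SE 0.32, limma unadjusted p = 0.0612, adjusted p = 0.992), and the difference was 0.37 without the library labelled DeltaKlf6 1. After quantile normalization was repeated or the arrays were median-centred, the Ackr3 groups overlapped. Ackr3 was read on its only probe set, which is of a type that can be shared between transcripts, so it has no value with such probe sets left out. Sinusoidal endothelial markers, 3 of 11 of them higher, had list means of 6.57, 6.74 and 6.29 in DeltaKlf6 1, 2 and 3, with wildtype arrays at 6.67 to 6.77 (log2 of the summed signal 10.83 to 11.03 in DeltaKlf6 and 11.01 to 11.12 in wildtype). Kdr, the VEGF receptor of endothelium, was at 5.69 ± 0.55 in DeltaKlf6 and 6.55 ± 0.07 in wildtype (log2 difference -0.87, SE 0.30, limma adjusted p = 0.992). The part of endothelial content in these values was not tested.

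Cxcl13, which draws B cells through Cxcr5, had the widest range of all members over the libraries labelled DeltaKlf6. It was at 8.98, 7.37 and 10.47 in libraries DeltaKlf6 1, 2 and 3, compared with 9.28, 9.86 and 9.78 in wildtype 1, 2 and 3, so DeltaKlf6 3 lay above the wildtype range and DeltaKlf6 1 and 2 below it (log2 difference -0.70, SE 0.68, limma adjusted p = 0.992). The other Cxcl13 probe set was at 7.76, 5.95 and 7.13 in DeltaKlf6 1, 2 and 3, against 7.87, 8.26 and 8.77 in wildtype 1, 2 and 3. There all 3 DeltaKlf6 values lay below all wildtype values (log2 difference -1.35, SE 0.46, unadjusted p = 0.0191, adjusted p = 0.992 over probe sets), so the 2 probe sets differ in where they place DeltaKlf6 3. Without DeltaKlf6 2 the difference on the brighter probe set was 0.08, and without DeltaKlf6 3 it was -1.47. B cell markers, 3 of 4 of them higher, had list means of 3.92, 3.95 and 3.83 in DeltaKlf6 1, 2 and 3, with wildtype arrays at 3.61 to 4.04 (log2 of the summed signal 6.07 to 6.09 in DeltaKlf6 and 5.70 to 6.23 in wildtype), and 1 of the 4 was never above the background mark. Their part in the Cxcl13 values was not tested. Cxcr5 was never above the background mark (-0.22).

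Cxcl16, a membrane-bound ligand of Cxcr6 on NKT cells, was at 5.37, 6.30 and 6.35 in libraries DeltaKlf6 1, 2 and 3, compared with 6.13, 6.52 and 6.50 in wildtype 1, 2 and 3, with DeltaKlf6 1 below every other array (log2 difference -0.38, SE 0.31, and -0.06 without that library). This probe set is of a type shared between transcripts, and the other Cxcl16 probe set gave a difference of the opposite sign (0.18), with DeltaKlf6 1 at 6.21 inside the wildtype range of 5.62 to 6.25. Pf4, the platelet chemokine, was at 7.71, 6.40 and 8.09 in libraries DeltaKlf6 1, 2 and 3, compared with 6.41, 7.57 and 7.31 in wildtype 1, 2 and 3, with DeltaKlf6 1 and 3 above the wildtype range (log2 difference 0.30, SE 0.48, limma adjusted p = 0.992). Platelet and megakaryocyte markers, 3 of 6 of them higher, differed from the wildtype mean by -0.06, -0.19 and 0.27 in DeltaKlf6 1, 2 and 3, and 5 of the 6 were never above the mark; the log2 of their summed signal was 5.80 to 6.25 in DeltaKlf6 and 5.83 to 6.34 in wildtype. Their part in the Pf4 values was not tested. Cxcl17, a mucosal chemokine, was near background (-0.14).

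**Figure D2:**
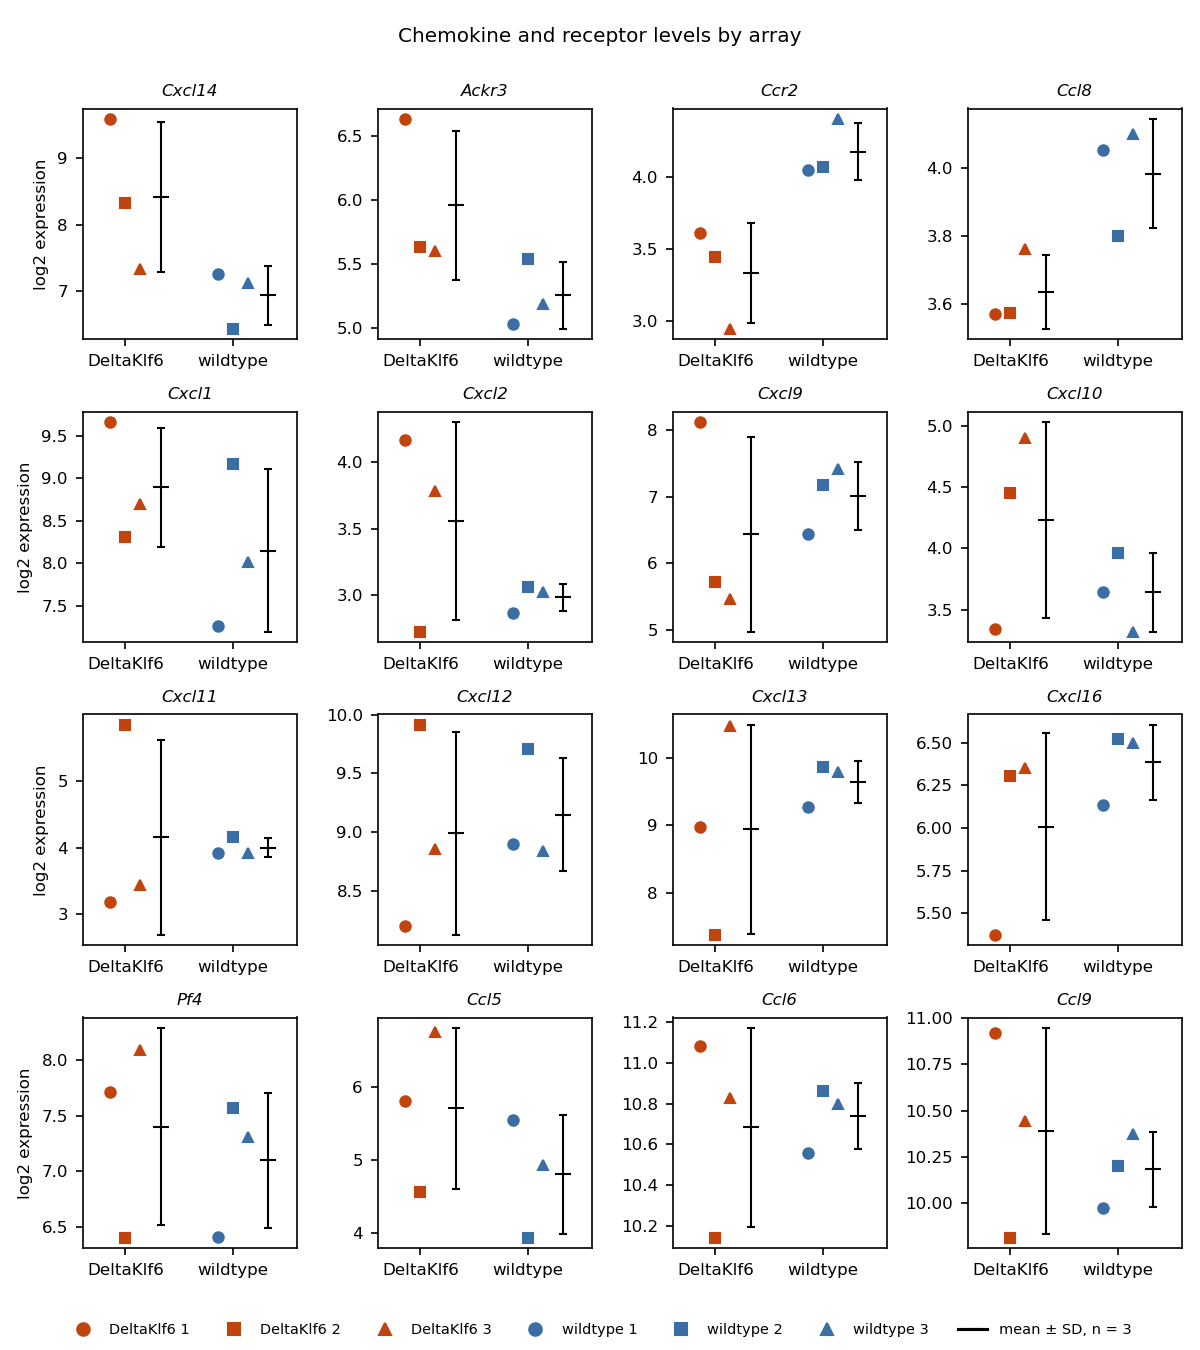
Log2 expression (vertical axis, a separate scale in each panel) of 16 members is shown for each DeltaKlf6 array (left) and each wildtype array (right), with the group mean ± SD (n = 3) in black. The groups separate only for Cxcl14, Ackr3, Ccr2 and Ccl8, while for Cxcl9 (DeltaKlf6 1) and Cxcl11 (DeltaKlf6 2) a single DeltaKlf6 library stands above the other 2.

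Among the inflammatory CC ligands, Ccl6 and Ccl9, a pair of macrophage and myeloid chemokines that act on Ccr1, were bright on every array. Ccl6 was at 11.08, 10.14 and 10.83 in libraries DeltaKlf6 1, 2 and 3, compared with 10.56, 10.86 and 10.80 in wildtype 1, 2 and 3 (log2 difference -0.06, SE 0.28). Ccl9 was at 10.92, 9.81 and 10.44 in libraries DeltaKlf6 1, 2 and 3, compared with 9.97, 10.20 and 10.37 in wildtype 1, 2 and 3 (log2 difference 0.21, SE 0.31, limma adjusted p = 0.992). Both were highest in DeltaKlf6 1 and lowest in DeltaKlf6 2 of all 6 arrays, and neither group mean differed by more than the spread between replicates. The dimmer Ccl9 probe set was at 7.29, 6.42 and 3.61 in DeltaKlf6 1, 2 and 3, against 4.58, 5.35 and 5.27 in wildtype 1, 2 and 3, and so placed DeltaKlf6 2 above the wildtype range and DeltaKlf6 3 below it. Kupffer cell and macrophage markers, 10 of 14 of them higher, had list means of 7.22, 7.75 and 7.01 in DeltaKlf6 1, 2 and 3, with wildtype arrays at 6.98 to 7.31 (log2 of the summed signal 11.85 to 12.45 in DeltaKlf6 and 11.67 to 11.89 in wildtype), all of them above the mark on at least 1 array. Within that list Cd163, a scavenger receptor of resident macrophages, was at 5.48, 5.20 and 5.23 in DeltaKlf6 1, 2 and 3, against 6.31, 6.33 and 6.79 in wildtype 1, 2 and 3. The Cd163 groups did not overlap (log2 difference -1.17, SE 0.23, limma unadjusted p = 0.0009, adjusted p = 0.992), on the lower side while most of the list was higher. Mpeg1 also had groups that did not overlap, on the higher side (0.58, SE 0.25, limma unadjusted p = 0.047, adjusted p = 0.992). That is 1 of 14 on each side, beside 3.41% of all genes above and 5.91% below. The part of macrophage content in the ligand values was not tested.

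Ccl5, a ligand for T cells, monocytes and eosinophils, was at 5.81, 4.56 and 6.76 in libraries DeltaKlf6 1, 2 and 3, compared with 5.56, 3.94 and 4.93 in wildtype 1, 2 and 3. DeltaKlf6 3 was the highest array and wildtype 2 the lowest, and the groups overlapped (log2 difference 0.90, SE 0.59, limma adjusted p = 0.992). Leaving out DeltaKlf6 3 gave 0.38, leaving out DeltaKlf6 2 gave 1.48 and leaving out wildtype 2 gave 0.47. Ccl8, a monocyte and T cell attractant, was at 3.57, 3.57 and 3.76 in libraries DeltaKlf6 1, 2 and 3, compared with 4.05, 3.80 and 4.10 in wildtype 1, 2 and 3. The groups did not overlap, by 0.04, and they overlapped after the arrays were median-centred, with values around the background mark (log2 difference -0.35, SE 0.20, limma unadjusted p = 0.125, adjusted p = 0.992). The monocyte chemoattractants Ccl2 (0.22), Ccl7 (-0.02) and Ccl12 (0.04), and Ccl3 (-0.13) and Ccl11 (-0.15), were never above the mark. Ccl4 was above it on 1 array (-0.14) and the eosinophil ligand Ccl24 on 2 (0.31). The mean of the 11 inflammatory CC ligands differed from wildtype by 0.12, -0.20 and 0.31 in DeltaKlf6 1, 2 and 3.

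The homeostatic and lymphocyte-attracting CC ligands showed small differences. Ccl19, a ligand that guides T cells and dendritic cells, was at 5.62, 5.44 and 6.47 in libraries DeltaKlf6 1, 2 and 3, compared with 5.52, 5.84 and 5.74 in wildtype 1, 2 and 3, with DeltaKlf6 3 above the wildtype range (log2 difference 0.14, SE 0.30). Ccl25, the thymic and gut ligand of Ccr9, was at 4.98, 5.02 and 4.37 in libraries DeltaKlf6 1, 2 and 3, compared with 4.34, 5.47 and 4.50 in wildtype 1, 2 and 3, with all 3 DeltaKlf6 values inside the wildtype range (log2 difference 0.02, SE 0.35). Ccl20, a ligand of Ccr6, was at 3.82, 3.83 and 4.02 in libraries DeltaKlf6 1, 2 and 3, compared with 4.22, 3.99 and 4.53 in wildtype 1, 2 and 3, with DeltaKlf6 1 and 2 below the wildtype range (log2 difference -0.35, SE 0.22, limma adjusted p = 0.992). Ccl21b (-0.13) and Ccl27a (-0.05) are uncertain, because their probe sets are of the type shared between transcripts and both genes have near-identical copies in mouse. Ccl1 (0.26), Ccl17 (-0.21) and Ccl22 (0.22) were never above the background mark, and Ccl28 was above it on 1 array (0.04). Dendritic cell markers, 2 of 4 of them higher, differed from the wildtype mean by 0.09, -0.20 and 0.40 in DeltaKlf6 1, 2 and 3 (log2 of the summed signal 5.57 to 6.12 in DeltaKlf6 and 5.67 to 5.88 in wildtype, 1 of the 4 never above the mark). Over the same libraries Ccl19 differed by -0.08, -0.26 and 0.77, and the part of dendritic cells in it was not tested.

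Of the receptors, Ccr2, which brings monocytes out of the marrow and into inflamed tissue, had the smallest unadjusted p of all 52 members. It was at 3.61, 3.45 and 2.95 in libraries DeltaKlf6 1, 2 and 3, compared with 4.05, 4.07 and 4.40 in wildtype 1, 2 and 3. All 3 DeltaKlf6 values lay below all wildtype values, by 0.44 between the closest pair, although only the wildtype values were above the background mark of their arrays. The group means were 3.33 ± 0.34 in DeltaKlf6 and 4.18 ± 0.20 in wildtype (mean ± SD, n = 3 each) (log2 difference -0.84, SE 0.25, limma unadjusted p = 0.00966, adjusted p = 0.992). The other 3 Ccr2 probe sets, each dimmer, gave differences of 0.07, 0.17 and 0.03, and the mean of all 4 gave -0.14, so the separation rests on 1 probe set. Leaving out 1 array at a time gave -0.98 to -0.65. Monocyte markers, 4 of 5 of them higher, had list means of 4.77, 4.68 and 5.10 in DeltaKlf6 1, 2 and 3, with wildtype arrays at 4.48 to 5.02 (log2 of the summed signal 8.95 to 9.86 in DeltaKlf6 and 8.93 to 9.44 in wildtype, 1 of the 5 never above the mark). Their part in the Ccr2 values was not tested.

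Apart from Ccr2 and Ackr3, the groups overlapped for every receptor on its brightest probe set. Ackr2, an atypical receptor that removes inflammatory CC ligands, was at 3.59, 5.33 and 4.70 in libraries DeltaKlf6 1, 2 and 3, compared with 4.25, 5.04 and 4.97 in wildtype 1, 2 and 3 (log2 difference -0.21, SE 0.45), with DeltaKlf6 1 below the wildtype range and DeltaKlf6 2 above it. Of its 2 other probe sets, neither ever above the mark, 1 had groups that did not overlap (-0.45, SE 0.20, unadjusted p = 0.0531, adjusted p = 0.992 over probe sets) and the other differed by 0.16. Cx3cr1, the fractalkine receptor of monocytes and macrophages, was at 3.65, 4.13 and 3.60 in libraries DeltaKlf6 1, 2 and 3, compared with 4.28, 3.63 and 3.94 in wildtype 1, 2 and 3 (log2 difference -0.16, SE 0.26), and its ligand Cx3cl1 differed by 0.20. Ccr1 (0.34), Ccr9 (0.33), Ccr4 (0.30), Ccr6 (0.11), Ccr3 (0.10), Ccr8 (-0.07), Cxcr6 (0.04) and Xcr1 (0.27), the receptor for Xcl1 (-0.03) on cross-presenting dendritic cells, were never above the mark, and Ccr10 was above it on 2 arrays (-0.13). The 16 receptors had a median log2 difference of 0.06 and the 36 ligands of 0.03.

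**Figure D3:**
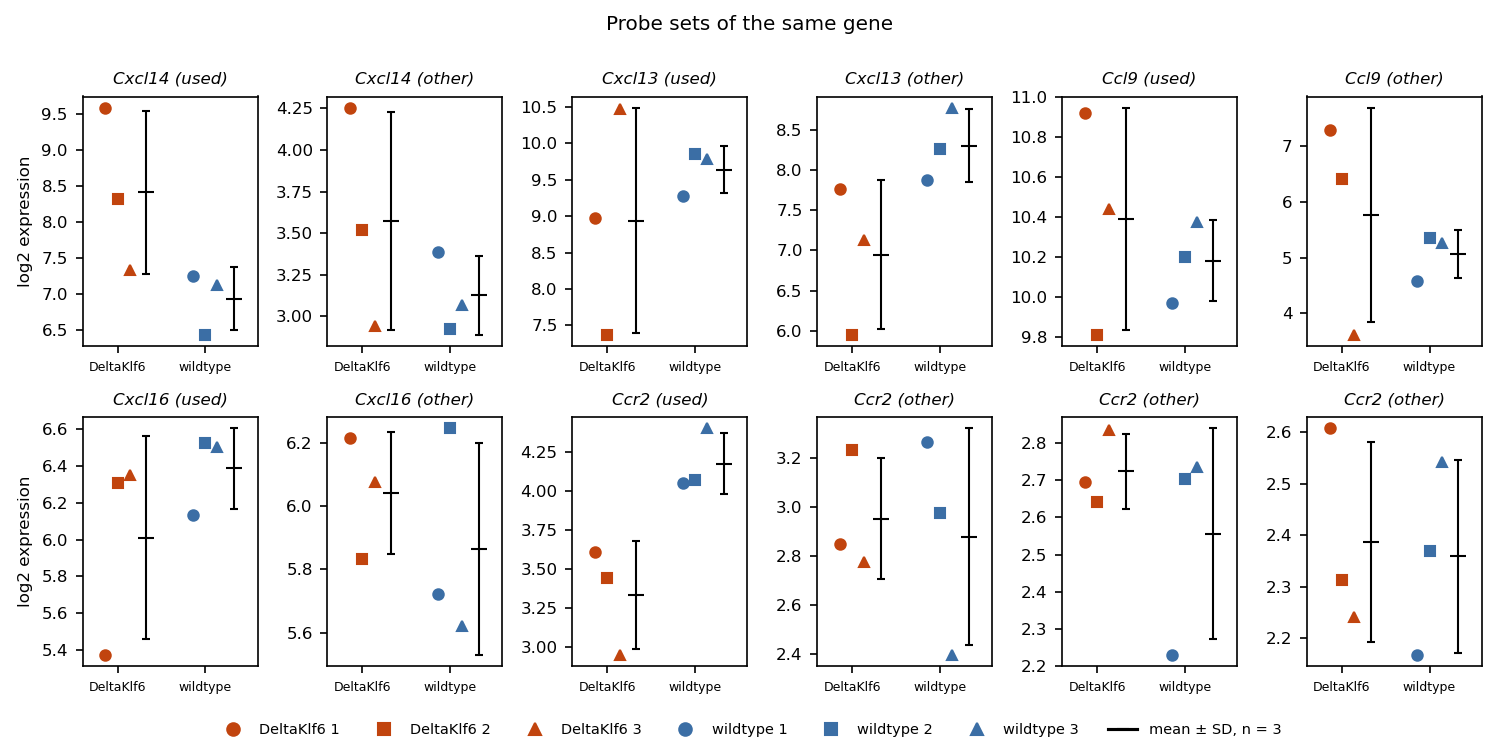
Log2 expression (vertical axis, a separate scale in each panel) is shown for every probe set of Cxcl14, Cxcl13, Ccl9, Cxcl16 and Ccr2, the brightest marked as used, with DeltaKlf6 arrays on the left, wildtype arrays on the right and the mean ± SD (n = 3) in black. Both Cxcl14 probe sets are highest in DeltaKlf6 1, whereas the probe sets of Cxcl13 and Ccl9 differ in where they place DeltaKlf6 3, and the separation of Ccr2 is seen on 1 of 4.

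The libraries labelled DeltaKlf6 differed more from each other than the wildtype arrays did. The median SD of members was 0.37 within DeltaKlf6 and 0.23 within wildtype, beside 0.35 and 0.24 over all genes. Among the 13 members above the background mark on all 6 arrays it was 0.70 in DeltaKlf6 and 0.44 in wildtype, beside 0.41 and 0.24 over the 7601 genes so marked. For 7 of these 13 members (53.8%) at least 1 DeltaKlf6 array lay above the wildtype range and another below it, beside 37.6% of the 7601 genes. Over all 52 members the share was 32.7%, the same as over all genes.

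Of these 13 members, 8 lay above the wildtype range and 3 below it in DeltaKlf6 1 (mean deviation from the wildtype mean 0.53), beside 2696 above and 2489 below of the 7601 genes. In DeltaKlf6 2, 3 lay above and 6 below (mean deviation -0.22), beside 2744 and 1996 of the 7601 genes. In DeltaKlf6 3, 7 lay above and 1 below (mean deviation 0.30), beside 1105 and 3721 of the 7601 genes. Over the 7601 genes above the mark the mean deviations were 0.02, 0.10 and -0.28 in DeltaKlf6 1, 2 and 3, so the bright chemokines of DeltaKlf6 3 lay higher on average while its bright genes as a whole lay lower. This was not tested, and the larger 3'-minus-5' Gapdh signal and lower upper quartile of DeltaKlf6 3 move with it. The 3'-minus-5' actin signal of that library, 5.05, lay within the wildtype range of 4.86 to 5.39. Erythroid markers, 4 of 4 of them higher, differed from the wildtype mean by 0.14, 0.17 and 0.31 in DeltaKlf6 1, 2 and 3 (log2 of the summed signal 11.33 to 11.81 in DeltaKlf6 and 11.03 to 11.33 in wildtype, 2 of the 4 never above the mark), and their part in the chemokine values was not tested.

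**Figure D4:**
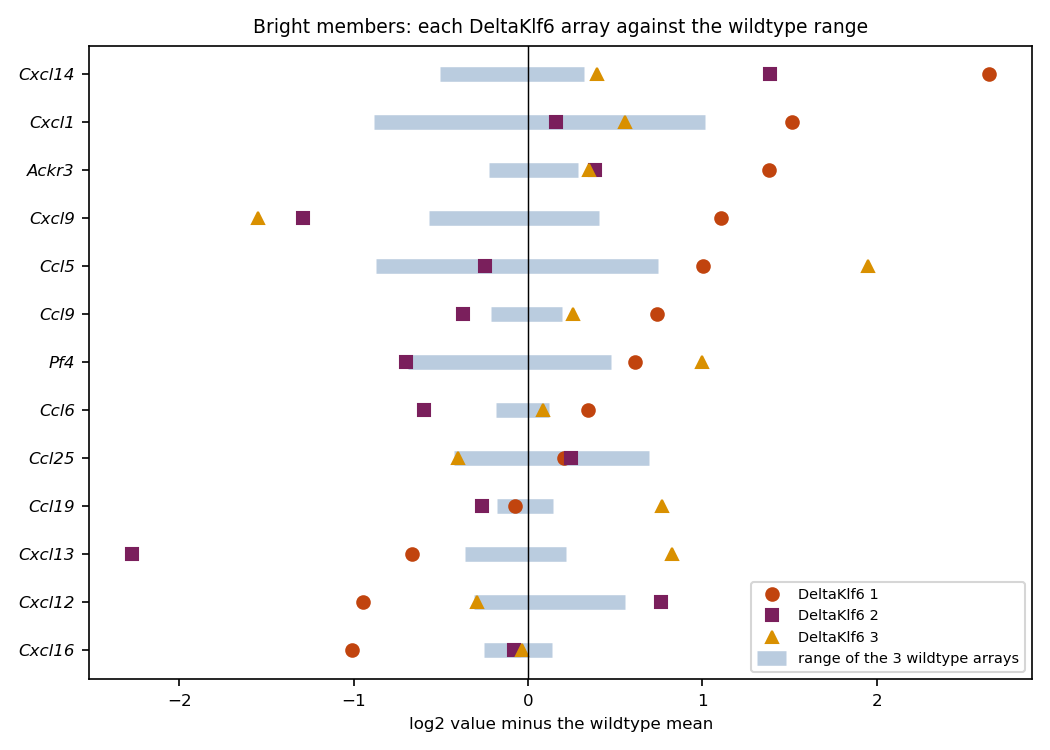
For the 13 members above the background mark on all 6 arrays, the log2 value of each library labelled DeltaKlf6 minus the wildtype mean (horizontal axis) is set against the range of the 3 wildtype arrays (blue bars). Cxcl14, Cxcl1 and Ackr3 lie farthest to the right in DeltaKlf6 1, and Cxcl13 and Cxcl12 have DeltaKlf6 libraries on both sides of the wildtype range.

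Genes that act with the chemokines were read from 5 lists, and 0 of their measured genes passed the test in either direction. Of 10 genes, atypical and other chemoattractant receptors and the ligand gene Rarres2, 5 were higher and 5 lower by group mean. Rarres2, which encodes chemerin, was at 0.44 (SE 0.33), and Fpr2, a formyl peptide receptor of neutrophils, at -0.66 (SE 0.55). Of 26 signalling genes below the receptors 9 were higher and 17 lower. Grk3, a kinase that silences activated receptors (-0.47, SE 0.21), and Dock2 (-0.47, SE 0.26) had groups that did not overlap. Both were lower, 2 of the 26 beside 5.91% of all genes, and Dock2 was above the background mark on 3 arrays. Arrb1, an arrestin (-0.70, SE 0.32), and Plcb3, a phospholipase (-0.69, SE 0.37), had groups that overlapped. Of 15 adhesion genes 9 were higher and 6 lower. Vcam1, which binds monocytes and lymphocytes to endothelium, was at 5.93, 4.24 and 5.66 in DeltaKlf6 1, 2 and 3, against 4.31, 4.37 and 4.25 in wildtype 1, 2 and 3 (log2 difference 0.97, SE 0.42, limma unadjusted p = 0.0483, adjusted p = 0.992). DeltaKlf6 2 was no higher than wildtype. Selp, the platelet and endothelial selectin, differed by 0.73 (SE 0.38).

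Of 13 genes that cleave, shed or hold chemokines 7 were higher and 6 lower. Mmp14, a membrane metalloprotease, was at 6.73, 6.55 and 5.19 in DeltaKlf6 1, 2 and 3, against 7.37, 6.90 and 7.45 in wildtype 1, 2 and 3. The groups did not overlap (log2 difference -1.09, SE 0.41, limma unadjusted p = 0.0297, adjusted p = 0.992). Ctsg, never above the background mark, also had groups that did not overlap (-0.26, SE 0.20). Both were lower, 2 of the 13 beside 5.91% of all genes. Dpp4, which trims and inactivates several chemokines, differed by 0.43 (SE 0.30). Of 14 genes that induce or regulate chemokine transcription 3 were higher and 11 lower, a median of -0.18 beside -0.01 over all genes. The 11 lower include Nfkbia (-0.16) and Tnfaip3 (-0.28), feedback inhibitors of NF-kB, so the count does not measure induction. Il1b (-0.43, SE 0.25) and the interferon factor Irf1 (-0.79, SE 0.47) were on the lower side and Il1a (0.33, SE 0.29) on the higher side, and none passed.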

How the data were processed

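Gene expression was measured on 6 Affymetrix arrays, 1 per animal. Per the submitters' processing notes, the authors summarized the arrays by RMA in Affymetrix Expression Console 1.2.1, and the deposited values are on a log2 scale. The log base was inferred from the highest value, 13.9, since a 16-bit scanner limits log2 values to 16; the genome build is not given in the sources used here. Of 45141 probe sets, 28898 carried 1 gene symbol, 551 several and 15692 none. The probe set with the highest mean stood for each of 17097 genes. Groups were compared by linear models and moderated variances (limma 3.58.1, R 4.3.3), with Benjamini-Hochberg adjustment over all genes, and the procedure was tested on simulated data. Members described in full were those with groups that did not overlap, the smallest p in each direction, the brightest ligands and receptors, and the widest DeltaKlf6 ranges. Members and lists were chosen with earlier results of these data known. Alternatives changed probe set choice, filtering, normalization, variance model, array weights, replicate block and single arrays. The number of arrays limits the precision.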

Additional observations from a re-analysis of the deposited data

Results flagged for a closer look

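The mean of the 9 hybridization control probe sets, which report RNA added to the samples and no gene of the liver, was 11.02 in the library labelled DeltaKlf6 3. It was 9.66 in both DeltaKlf6 1 and DeltaKlf6 2, and 9.92 to 10.13 in wildtype. This signal lies outside the chemokine measurements and was above every wildtype array.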

How the results depend on the processing

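No member and no gene passed an adjusted p under 0.05 under any alternative tried, and the lowest adjusted p of the 18 named members was 0.412. Of 262 alternative values of these members 252 kept their direction and 10 reversed, in 8 members. Many of these values could not change, so the count does not measure robustness. The variance models and the replicate block return the same difference by construction. Filtering and probe set choice also left the difference unchanged for many of these members. Cxcl16 reversed to 0.18 without shared probe sets, and the brightest Klf6 probe set to -0.061 when quantile-normalized again. Leaving out 1 array at a time gave -0.61 to 0.26 for Ackr2, -0.26 to 0.22 for Ccl6, -0.056 to 0.50 for Ccl9, -0.33 to 0.0087 for Cx3cr1, -0.69 to 0.64 for Cxcl11, -0.62 to 0.24 for Cxcl12 and -1.47 to 0.082 for Cxcl13. For the Klf6 probe sets, the brightest first, it gave -1.03 to 0.91, -0.13 to 0.94 and -0.86 to 0.64. Counts by 2 further rules were added after seeing the data. Members whose groups did not overlap numbered 4, which is 7.69% beside 9.32% of all genes. With dim genes left out they numbered 2 of the 15 members kept (13.3% beside 9.8%), and 2 when median-centred (3.85% beside 8.75%). With 1 array left out they numbered 7 to 14 (13.5% to 26.9%), where fewer samples make separation easier (16.4% to 25.3% of all genes). Members at an unadjusted p under 0.05 numbered 2 (3.85%, beside 3.69% of all genes) and ranged over 0 to 6. There were 0 from the mean of probe sets, beside 3.37% of all genes, and 6 of 52 without DeltaKlf6 2, beside 6.81%. Beyond the smaller number of arrays, the cause was not tested. With the replicate number as a block, 0 members passed and 3 were at an unadjusted p under 0.05, beside 4.11% of all genes. Same-numbered arrays correlated at -0.0049, 0.262 and 0.0837 in their deviations from the group means, and differently numbered arrays at -0.1744 to 0.0858. With so few arrays these values cannot decide whether the numbers pair the samples.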
